A study of Mus musculus with 8 samples.

Results

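The open chromatin of AML246 cells after 12 days of restored PU.1 was compared with that of the same course 12 days after doxycycline (Dox) was withdrawn. AML246 is a mouse acute myeloid leukaemia cell line. The assay was ATAC-seq: a transposase cuts and tags DNA that is not wrapped in nucleosomes. The deposited data were lists of peak summits, 1 list per library and 1 library per group. The first group, called day 12 here, is titled as PU.1 restoration and was taken after 12 days on Dox at 0.1 µg/mL. The second group, called 12 days off, is titled as PU.1 knockdown and was taken on day 24 of the course, after 12 days on Dox and 12 days without it. Both groups were total viable cells grown in IMDM with 10% FCS and IL-3, so neither was selected for a differentiation marker. Libraries were made from 50000 cells with a Nextera kit, size-selected at 200 to 700 bp and read as 75 bp pairs. The protocol also mentions ChIP, but the title, the design text and the library preparation name ATAC-seq. The construct through which Dox changes PU.1 and the origin of the line are, in the sources used here, not given. The other 6 libraries of the series (days 0, 4 and 8 of restoration, cells sorted as CD11b-high on day 12, and total cells 4 and 8 days off) served only to describe the regions of these 2 lists.

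Each summit on chromosomes 1 to 19, X or Y was widened by 150 bp on both sides, overlapping intervals of the 2 lists were merged, and a region counted as open where a library had a summit in it. The comparison held 42819 regions, against 68800 when all 8 libraries were merged. Of these, 11308 were open at day 12 only, 8263 were open at 12 days off only and 23248 were shared. "Not open" means that no summit was called. As each group was a single library, no spread between replicates exists and no test between the conditions was run, and all intervals below are exact 95% binomial intervals that cover counting error only. The score printed with a summit is the deposited −log10 of a p-value or, since the sources used here do not say which, of a q-value. It depends on the depth of the library, so it ranks summits within a list and does not measure a change between lists. Because each library was a bulk sample, fewer cells with a region open and less opening in each cell cannot be told apart.

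PU.1, the product of Spi1, is an ETS-family transcription factor that binds purine-rich sites with a GGAA core and can bind sites in closed chromatin. It is required for the development of monocytes, macrophages, granulocytes and B cells, and it drives receptor genes such as those for the growth factors M-CSF, GM-CSF and G-CSF. In myeloid leukaemia a low level of PU.1 goes along with a block in differentiation. The enhancers it occupies often also carry sites for C/EBP, RUNX, AP-1 or IRF factors.

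The promoters below carry the strongest regions of each kind that lay at a RefSeq promoter, and they are shown because the letters of the PU.1 site differed in frequency between the 2 kinds. They were the 4 day-12-only and the 4 off-12-only regions with the highest own score that overlapped a promoter window, had no summit of the other list within 1 kb and were supported by neighbouring libraries. A day-12-only region was called supported when it was also open in CD11b-high cells and not open at 8 days off. An off-12-only region was called supported when it was also open at 8 days off and not open in CD11b-high cells. Each line gives the 250 bases before the start of the gene, 5′ to 3′ on the strand of the gene, from the RefSeq promoter table of build GRCm38.p6, with the octamer GAGGAAGT or its complement in capitals.
The day-12-only set was Gm14548 (chr7:3898142-3898391), a predicted protein-coding gene, Gm15537 (chr16:3929413-3929662) and Gm35941 (chr9:63780752-63781001), long non-coding RNA genes, and Gapt (chr13:110357173-110357422), a transmembrane adaptor that binds Grb2.
Gm14548: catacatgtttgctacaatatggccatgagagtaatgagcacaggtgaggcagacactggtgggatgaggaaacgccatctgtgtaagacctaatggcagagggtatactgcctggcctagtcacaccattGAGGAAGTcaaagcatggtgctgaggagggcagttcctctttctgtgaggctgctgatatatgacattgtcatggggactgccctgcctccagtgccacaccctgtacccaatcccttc
Gm15537: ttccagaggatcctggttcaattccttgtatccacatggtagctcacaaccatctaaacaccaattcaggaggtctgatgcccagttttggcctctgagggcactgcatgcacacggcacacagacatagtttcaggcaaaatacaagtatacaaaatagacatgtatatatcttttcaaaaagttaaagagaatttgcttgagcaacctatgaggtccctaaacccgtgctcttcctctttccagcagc
Gm35941: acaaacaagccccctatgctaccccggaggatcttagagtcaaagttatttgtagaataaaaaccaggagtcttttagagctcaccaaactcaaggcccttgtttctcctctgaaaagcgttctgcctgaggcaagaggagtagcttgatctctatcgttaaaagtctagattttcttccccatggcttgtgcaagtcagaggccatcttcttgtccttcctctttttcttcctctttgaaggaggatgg
Gapt: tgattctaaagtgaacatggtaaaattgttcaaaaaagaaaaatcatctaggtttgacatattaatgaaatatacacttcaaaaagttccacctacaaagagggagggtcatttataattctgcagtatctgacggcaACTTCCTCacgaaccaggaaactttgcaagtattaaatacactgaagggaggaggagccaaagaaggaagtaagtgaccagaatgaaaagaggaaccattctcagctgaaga
The off-12-only set was Dmwd (chr7:19075950-19076199), a WD-repeat protein, Lhfpl5 (chr17:28575469-28575718), a membrane protein of the inner ear's transduction channel, Chgb (chr2:132781392-132781641), a secretory granule protein, and Apbb2 (chr5:66618818-66619067), an adaptor of the amyloid precursor protein.
Dmwd: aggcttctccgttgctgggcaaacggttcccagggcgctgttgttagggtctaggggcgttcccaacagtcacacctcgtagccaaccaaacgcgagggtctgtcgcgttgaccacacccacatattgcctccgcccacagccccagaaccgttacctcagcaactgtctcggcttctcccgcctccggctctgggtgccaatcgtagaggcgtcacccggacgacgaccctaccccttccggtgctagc
Lhfpl5: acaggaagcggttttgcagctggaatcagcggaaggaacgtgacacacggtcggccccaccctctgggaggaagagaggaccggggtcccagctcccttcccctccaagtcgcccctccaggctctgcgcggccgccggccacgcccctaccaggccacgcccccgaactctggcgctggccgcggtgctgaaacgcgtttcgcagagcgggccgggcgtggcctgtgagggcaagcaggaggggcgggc
Chgb: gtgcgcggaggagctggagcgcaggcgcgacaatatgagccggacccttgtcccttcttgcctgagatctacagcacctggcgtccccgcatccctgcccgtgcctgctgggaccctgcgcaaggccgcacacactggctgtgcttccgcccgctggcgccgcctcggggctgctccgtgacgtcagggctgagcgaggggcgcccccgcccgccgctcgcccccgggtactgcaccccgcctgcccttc
Apbb2: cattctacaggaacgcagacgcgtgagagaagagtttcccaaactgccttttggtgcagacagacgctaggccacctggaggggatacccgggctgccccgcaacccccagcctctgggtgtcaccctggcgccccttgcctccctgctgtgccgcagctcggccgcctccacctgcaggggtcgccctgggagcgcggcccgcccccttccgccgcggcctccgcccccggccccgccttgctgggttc
The octamer stood in the Gm14548 and Gapt promoters and in none of the 4 off-12-only promoters. The region at Chgb (chr2:132781648-132781948) began after the printed bases, with its summit 156 bp past the start. The letters of that region itself are therefore not shown. Promoters of Gm14548, Gm15537, Gm35941 and Gapt were 36.8% to 51.6% G and C, and those of Dmwd, Lhfpl5, Chgb and Apbb2 were 62.4% to 72.8%.

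The 30 bases around the octamer are shown for 6 further day-12-only supported promoters of immune genes, because some are near copies of each other. They belong to Pirb (chr7:3720484-3720513), an inhibitory receptor for MHC class I, to its relatives Gm15448 (chr7:3825799-3825828) and Lilra6 (chr7:3915633-3915662), to Bcl2a1d (chr9:88731936-88731965) and Bcl2a1a (chr9:88956805-88956834), survival proteins of the BCL2 family, and to the tetraspanin gene Cd82 (chr2:93462058-93462087). The same frame around the octamer was used for all 6.
Pirb: gtcacaccattGAGGAAGTcagagcatggt
Gm15448: gtcacaccattGAGGAAGTcagagcatggt
Lilra6: gtcacaccattGAGGAAGTcagagcacggt
Bcl2a1d: ctgaatcagaaGAGGAAGTggtgtgttgct
Bcl2a1a: cagaagaggaaGAGGAAGTggtgtgttgct
Cd82: ggttccagaagGAGGAAGTtgattgagatg
The stretches of Pirb and Gm15448 were the same in 30 of 30 bases, those of Pirb and Lilra6 in 29 of 30, and those of Bcl2a1d and Bcl2a1a in 26 of 30. The stretch of Gm14548 shared 29 of 30 bases with that of Pirb. Reads from such copies can be placed at either copy, so the separate summits of these genes are uncertain.

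The lists held 35113 summits at day 12 and 31867 at 12 days off. Shared regions made up 54.3% of the 42819 regions (53.8 to 54.8%), day-12-only regions 26.4% and off-12-only regions 19.3%. Of the day-12 regions 67.3% were also open at 12 days off, and of the regions open at 12 days off 73.8% were also open at day 12. In shared regions the summits of the 2 lists lay a median of 28.0 bp apart, and in 65.4% of them within 50 bp. There were 1.37 times as many day-12-only as off-12-only regions, and the day-12 list was the longer one. When both lists were cut to their 31867 summits with the highest scores, 9222 regions were day-12-only, 9319 were off-12-only and 22202 were shared, a ratio of 0.990 with 54.5% shared. Cutting both lists to 1 length sets this ratio close to 1 by construction, so it is no measure of the balance between the conditions.

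Among the 28 pairs of libraries with equal numbers of summits, this pair shared less than most. Its 54.5% ranked 25 of 28. The only pairs that shared less were 12 days off with CD11b-high cells at 54.0%, day 0 with day 12 at 53.6% and day 0 with CD11b-high cells at 53.4%. Each of the 2 lists overlapped more with some of the others: day 12 shared 65.4% with CD11b-high cells, and 12 days off shared 66.6% with 8 days off and 64.7% with day 0. With all summits the pair ranked 18 of 28. The pairs reuse the same lists and are not independent of each other.

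Regions open in 1 list only had low scores. The median own score was 5.88 in day-12-only and 5.96 in off-12-only regions, against 13.1 (day 12) and 13.9 (12 days off) in shared ones. When the day-12 regions were placed in 10 score bins of equal size, the share also open at 12 days off went from 34.1% (32.5 to 35.7%) in the lowest bin to 97.5% (96.9 to 98.0%) in the highest. For the regions open at 12 days off the share also open at day 12 went from 38.3% to 98.2%. The highest bins thus held 88 day-12-only and 56 off-12-only regions. For 2254 day-12-only regions (19.9%) and 1662 off-12-only regions (20.1%) a summit of the other list lay within 1 kb.

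**Figure D1:**
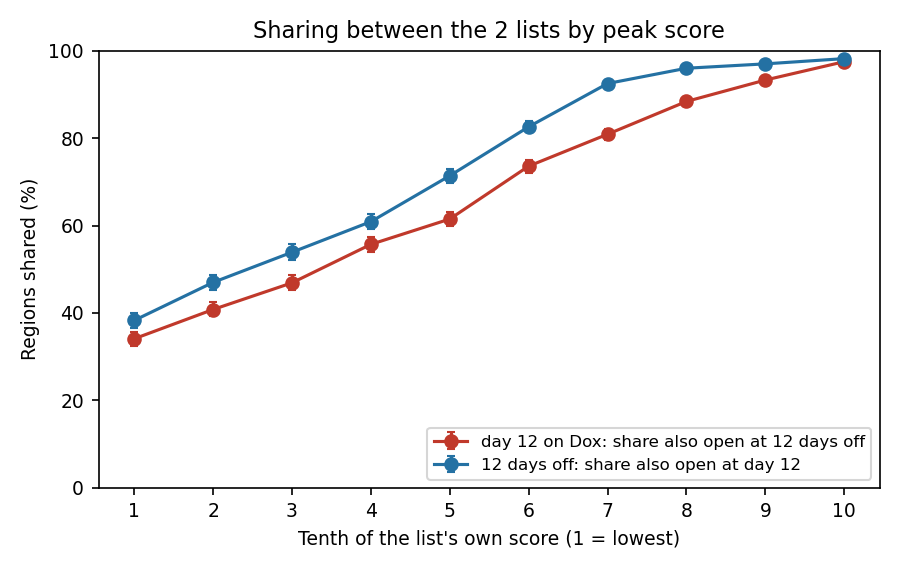
Share of regions (%, y axis) that were also open in the other list, in 10 bins of equal size by the list's own score (x axis, 1 is the lowest); red is the day-12 list, blue the list at 12 days off, and bars are exact 95% intervals. Sharing climbed from 34.1% and 38.3% in the lowest bins to 97.5% and 98.2% in the highest.

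The other 6 libraries, which did not define the classes, separated them. Of the day-12-only regions 70.4% (69.5 to 71.2%) were open at day 8 and 55.8% (54.9 to 56.7%) in the CD11b-high library, while 25.1% (24.3 to 25.9%) were open at day 0. Of the off-12-only regions 54.6% (53.5 to 55.7%) were open at day 0 and 63.1% (62.1 to 64.2%) at 8 days off, while 27.0% (26.1 to 28.0%) were open in CD11b-high cells. At day 0, off-12-only regions were thus open more often than day-12-only regions, with an odds ratio of day-12-only against off-12-only of 0.278 (Woolf 95% interval 0.262 to 0.296). The odds ratio was 3.41 (3.20 to 3.62) in CD11b-high cells, 2.40 (2.26 to 2.54) at day 8 and 0.342 (0.322 to 0.362) at 8 days off. At day 4 the classes lay close together, where 40.3% of day-12-only and 37.3% of off-12-only regions were open (odds ratio 1.14, 1.07 to 1.20), and with scores of at least 10 the odds ratio turned to 0.770. At 4 days off 57.5% of day-12-only and 64.6% of off-12-only regions were open (odds ratio 0.738, 0.696 to 0.783). Neighbouring regions are not independent, so these intervals are too narrow. The other lists differed in length, from 35018 summits at day 4 to 51060 at 4 days off, with 46965 at day 8. A longer list can hold more regions of any class, so these shares are not directly comparable between libraries.

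**Figure D2:**
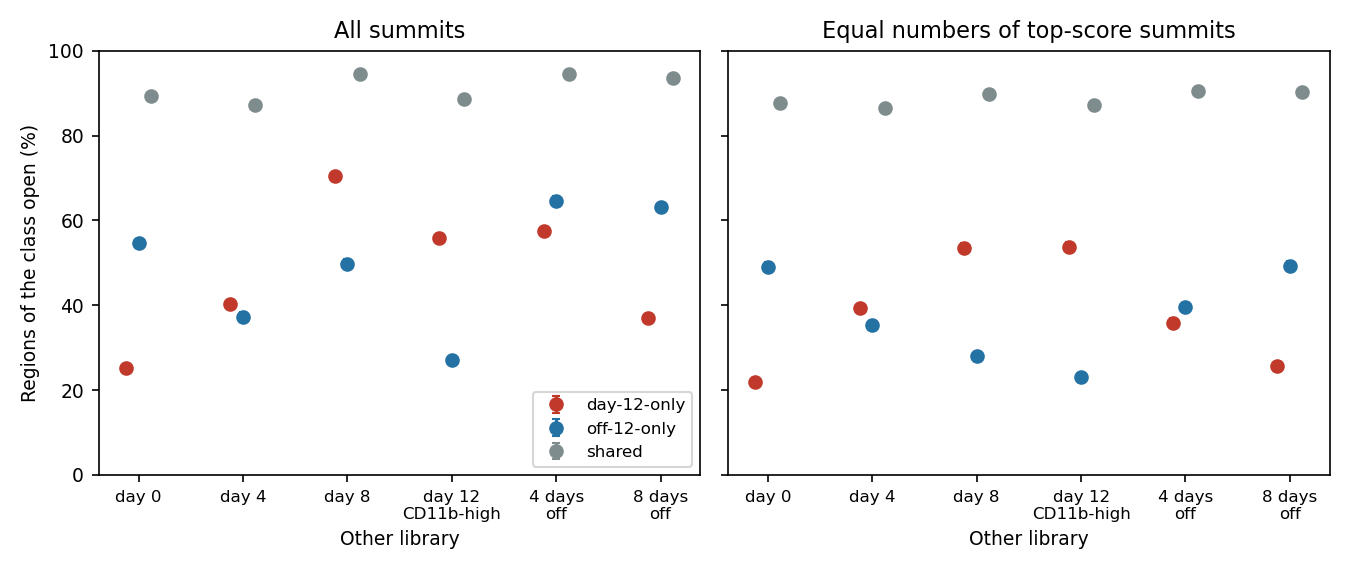
Share of each class (%, y axis) open in each of the other 6 libraries (x axis), for all summits (left) and for lists cut to equal numbers of top-score summits (right); bars, mostly hidden by the points, are exact 95% intervals. Day-12-only regions (red) were open in 25.1% at day 0 and 70.4% at day 8, off-12-only regions (blue) in 54.6% and 49.8%, and shared regions (grey) in 87.2% to 94.6% of cases in the left panel.

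Lists of equal length gave the same order, with odds ratios of 0.293 at day 0, 1.19 at day 4, 2.97 at day 8, 3.85 in CD11b-high cells, 0.857 at 4 days off and 0.354 at 8 days off. Among the day-12-only regions 3146 (27.8%) were missing at day 0 and at 8 days off and called in CD11b-high cells. A further view of the day-12-only regions is their time of first call: 2837 were already open at day 0, 2424 (21.4%) were not open at day 0 but open at both day 4 and day 8, and 2562 (22.7%) were not open at day 0, 4 or 8. After withdrawal 4231 of them (37.4%) were not open at 4 or 8 days off, 2901 (25.7%) were open at 4 and not at 8 days off, and 3596 (31.8%) were still called at both. Among the off-12-only regions 2256 (27.3%) were called at day 0 and 8 days off but missing in CD11b-high cells. In 2287 off-12-only regions (27.7%) no summit was called at day 0, 4 or 8, so these were seen neither before Dox nor in the total cells on Dox. Supported regions numbered 3531 of the day-12-only (31.2%, 30.4 to 32.1%) and 3478 of the off-12-only (42.1%, 41.0 to 43.2%), which is 8.25% and 8.12% of all 42819 regions. The CD11b-high list held 36215 summits and the list at 8 days off 41427. Off-12-only regions were thus sought in the longer list and had to be missing from the shorter one, and day-12-only regions the reverse. The supported shares of both classes are therefore not directly comparable. In none of the other 6 libraries were 1402 day-12-only (12.4%), 1130 off-12-only (13.7%) and 94 shared regions (0.404%) open. All 6 held 977 day-12-only regions (8.64%), 891 off-12-only regions (10.8%) and 16703 shared regions (71.8%), so 16703 regions were open in all 8 libraries.

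Both kinds of 1-list region lay mostly away from gene ends. Within 1 kb of the end of a protein-coding gene, at either side of its span, lay 15.1% (14.4 to 15.8%) of day-12-only, 18.1% (17.3 to 19%) of off-12-only and 39.0% (38.3 to 39.6%) of shared regions. Inside genes and over 1 kb from their ends lay 45.9%, 42.8% and 32.9%. The median distance to the closest gene end was 14301 bp, 10958 bp and 3911 bp in the same order. No protein-coding gene was found within 100 kb of 7.59% of day-12-only, 5.41% of off-12-only and 4.24% of shared regions. The supported regions had the same order, with 12.8% of day-12-only and 15.0% of off-12-only regions within 1 kb of a gene end.

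The 6 supported day-12-only regions with the highest own score and no summit of the other list within 1 kb had a common course. None was called at day 0, and all 6 were called at day 4 and day 8. Absence at day 0 was usual in this class, as 3146 of the 3531 supported day-12-only regions were not open then. The first lay inside Golga3, a Golgi matrix protein (chr5:110211288-110211588), with scores of 42.7 at day 4, 52.4 at day 8, 38.2 at day 12, 39.8 in the CD11b-high sort and 21.0 at 4 days off. The second lay near the vomeronasal receptor gene Vmn2r1 (chr3:64235453-64235753), with 29.8 at day 4, 46.5 at day 8, 36.9 at day 12, 36.4 in the CD11b-high sort and 8.29 at 4 days off. The region at the Gm14548 promoter shown above (chr7:3898158-3898458) had 46.5 at day 4, 43.2 at day 8, 35.6 at day 12, 24.2 in the CD11b-high sort and 2.49 at 4 days off. All 3 were thus still called at 4 days off, and their absence at 8 and 12 days off was set by the choice of regions. The others lay over 300 kb from any protein-coding gene on chromosome 4 (chr4:39113280-39113580), 50075 bp from the glycosyltransferase gene Gcnt1 (chr19:17275916-17276216) and 2279 bp from the anthrax toxin receptor gene Antxr2 (chr5:98033146-98033446). Their day-12 scores were 34.2, 33.7 and 31.7. Of the 6, only the region near Antxr2 was already not open at 4 days off.

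The 6 off-12-only regions chosen by the same rule were less uniform. The strongest lay 193 bp from Tmem107, a protein of the primary cilium (chr11:69073336-69073636), with scores of 61.2 at day 0, 35.6 at day 4, 14.1 at day 8, 14.0 at 4 days off, 38.8 at 8 days off and 42.7 at 12 days off. The region at the Dmwd promoter shown above (chr7:19075849-19076149) had 47.2 at day 0, 18 at day 4, 11.5 at day 8, 20.8 at 4 days off, 39.2 at 8 days off and 31.2 at 12 days off. Neither was called at day 12 or in CD11b-high cells, as the choice of regions required. A region inside Mknk1, a kinase that phosphorylates the translation factor eIF4E (chr4:115849285-115849585), had 11.4 at day 0, 6.38 at day 8, 38.8 at 4 days off, 45.2 at 8 days off and 31.7 at 12 days off. A region inside the engulfment adaptor gene Gulp1 (chr1:44584806-44585106) was called at day 0 with 16.4 and then not again until 4 days off with 3.35, 8 days off with 27.6 and 12 days off with 28.0. The region 1219 bp from Bhlhe40, a basic helix-loop-helix repressor (chr6:108659260-108659560), was called at 8 days off with 29.4 and at 12 days off with 23.3 and in no other library, day 0 included. The last lay over 300 kb from any protein-coding gene on chromosome 4 (chr4:13421455-13421755), with 22.8 at 12 days off and 17.5 at day 0. Thus 5 of the 6 were open at day 0 and 1 was not, beside 2256 of all 3478 supported off-12-only regions that were open at day 0.

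Promoters were read through 300 bp windows that run from 250 bases before to 50 bases after each RefSeq start. At a window lay 688 day-12-only regions and 747 off-12-only regions, 7.64% and 8.30% of the 9000 regions at windows. The table has no window on chromosome 18 and lacks the starts of some genes: 17491 of 21883 protein-coding genes had one. Windows in 1 class numbered 612 day-12-only, 758 off-12-only and 9338 shared, after 233 windows that fell in more than 1 class were left out. The PU.1 octamer GAGGAAGT, on either strand, stood in 41 of 612 day-12-only windows (6.70%, 4.85 to 8.98%) and in 17 of 758 off-12-only windows (2.24%, 1.31 to 3.57%). Shared windows held it in 3.20% of cases, as did all 32851 windows (1052 windows, 3.20%). In supported regions it stood in 18 of 171 day-12-only windows (10.5%, 6.36 to 16.1%) and in 5 of 300 off-12-only windows (1.67%, 0.543 to 3.85%). The octamer was therefore more frequent at day-12-only than at off-12-only promoters, by more than the counting error.

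Base composition moved with the classes, since median G and C content was 57.0% in day-12-only, 60.7% in off-12-only, 62.3% in shared and 52.7% in all windows. Below 55% G and C the octamer stood in 33 of 255 day-12-only windows (12.9%, 9.08 to 17.7%), 7 of 219 off-12-only windows (3.20%, 1.29 to 6.47%) and 3.66% of all windows. From 55 to 65% G and C it stood in 3.08% of day-12-only and 2.22% of off-12-only windows, and above 65% in 1.23% and 1.49%. The difference was thus seen in the windows poor in G and C, and in the richer windows the intervals of both classes overlapped.

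The 18 supported day-12-only windows with the octamer included several genes of myeloid cells. Besides Gm14548, Gapt, Pirb, Gm15448, Lilra6, Bcl2a1d, Bcl2a1a and Cd82, whose letters are shown above, they were those of Tlr9, an endosomal receptor for CpG DNA, Pram1, an adaptor of neutrophils, Havcr2, the immune checkpoint receptor TIM-3, A530064D06Rik, a TREM-family gene, and 6 long non-coding RNA or other predicted genes. None of the 18 was open at day 0 and 16 were open at day 8. Most supported day-12-only regions, 3146 of 3531, were likewise not open at day 0, and 70.4% of all day-12-only regions were open at day 8. In 16 of 18 the octamer lay within 150 bp of the summit, at a median of 47.5 bp. It was as close in the supported off-12-only windows, within 150 bp in 5 of 5 and at a median of 58.0 bp. The region at Pirb had scores of 10.3 at day 4, 14.4 at day 8, 11.7 at day 12 and 14.9 in CD11b-high cells, and was not called at day 0 or at any time off Dox. The region at Tlr9 had 9.90 at day 4, 11.8 at day 8, 11.1 at day 12 and 6.55 in CD11b-high cells, again with no call at day 0 or off Dox. For both regions the absence at 8 and 12 days off was set by the choice of supported regions. The region at Cd82 was called at day 12 with 21.8 and in CD11b-high cells with 18.9 and in no other library, and a summit of 12 days off lay within 1 kb of it. The off-12-only windows with the octamer belonged to Vash1, Chaer1, Isl2 and, with 2 windows, the predicted gene Gm36365.

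The other motifs were read in the same windows. The ETS core GGAA, which the octamer contains, stood in 97.5% of day-12-only, 91.3% of off-12-only and 96.0% of all windows. The GATA motif AGATAAG stood in 3.10% (1.88 to 4.81%) of day-12-only and 0.923% (0.372 to 1.89%) of off-12-only windows. All windows held it in 3.04% of cases and shared windows in 1.51% (1.27 to 1.78%). The off-12-only share thus lay apart from all windows, and the day-12-only share lay apart from shared windows. The part of G and C content in this motif's shares was not tested. The RUNX motif TGTGGTT stood in 5.07% and 5.67%, and in supported regions in 9.94% (5.90 to 15.4%) of day-12-only and 4.00% (2.08 to 6.88%) of off-12-only windows, beside 5.27% of all. The AP-1 motif (TGACTCA or its complement TGAGTCA) stood in 4.25% and 5.15%, beside 5.20% of all, and the CTCF core CAGGGGGC in 4.90% and 6.46%, beside 2.87% of all. The ETS-IRF motif GGAAGTGAA, which shares the letters GGAAGT with the octamer, stood in 0.980% and 0.923%, beside 0.642% of all. The C/EBP motif TTGCGCAA was found in 1 of 612 day-12-only and 0 of 758 off-12-only windows, beside 0.183% of all. All motifs were read on both strands, and a match is only a run of letters. Sequence at regions away from promoters was not read, since no genome was used here.

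**Figure D3:**
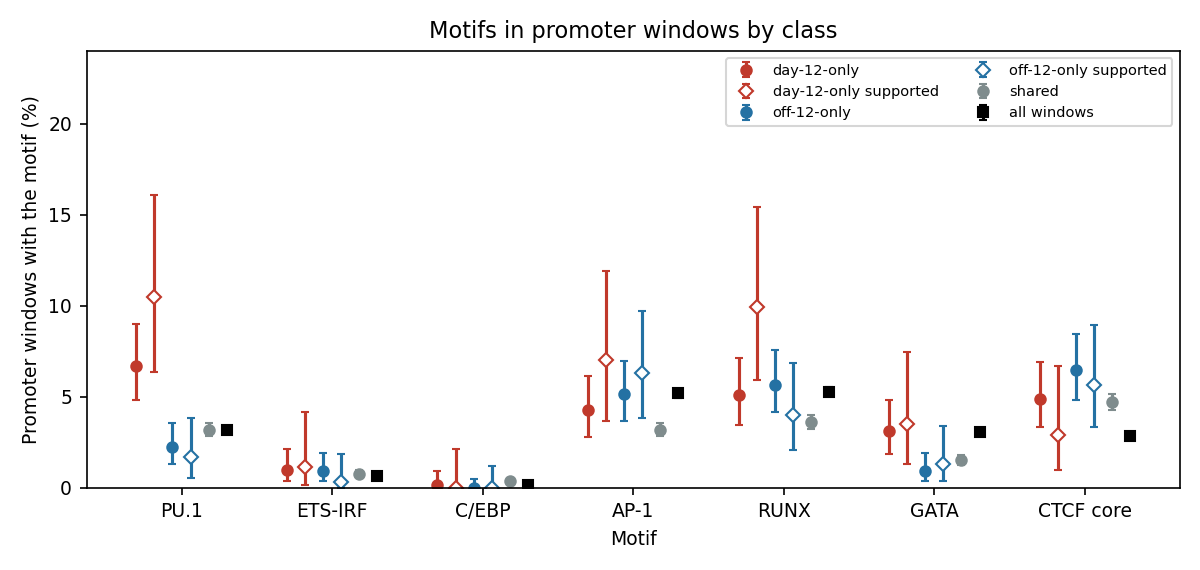
Share of promoter windows (%, y axis) that hold each motif on either strand (x axis), for day-12-only (red), off-12-only (blue), their supported subsets (open diamonds), shared (grey) and all windows (black squares), with exact 95% intervals. The PU.1 octamer stood in 6.70% of day-12-only windows, 10.5% of supported ones and 2.24% of off-12-only windows.

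The balance of the 2 kinds differed between chromosomes. Of the regions open in 1 list, 57.8% were day-12-only over the genome. On chromosome 4 the share was 45.5% (42.8 to 48.1%; 629 day-12-only and 754 off-12-only regions) and with equal numbers 37.6%. On the X chromosome it was 75.0% (70.4 to 79.3%; 288 and 96 regions) and with equal numbers 66.2%. Chromosomes 12 and 13 followed with 68.1% and 65%. Signal along whole chromosomes moved in the same direction in regions open in all 8 libraries. Their median score on chromosome 4, divided by the median of the library, was 1.04 at day 0, 1.06 at day 12, 1.18 at 8 days off and 1.20 at 12 days off. On the X chromosome it was 1.05 at day 0, 0.901 at day 12, 0.841 at 8 days off and 0.848 at 12 days off. The part of chromosome-wide signal in the counts of 1-list regions was not tested. Without chromosome 4 there were 10679 day-12-only, 7509 off-12-only and 21648 shared regions, a ratio of 1.42, or 1.03 with equal numbers. The share shared was 54.3% with and without chromosome 4.

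**Figure D4:**
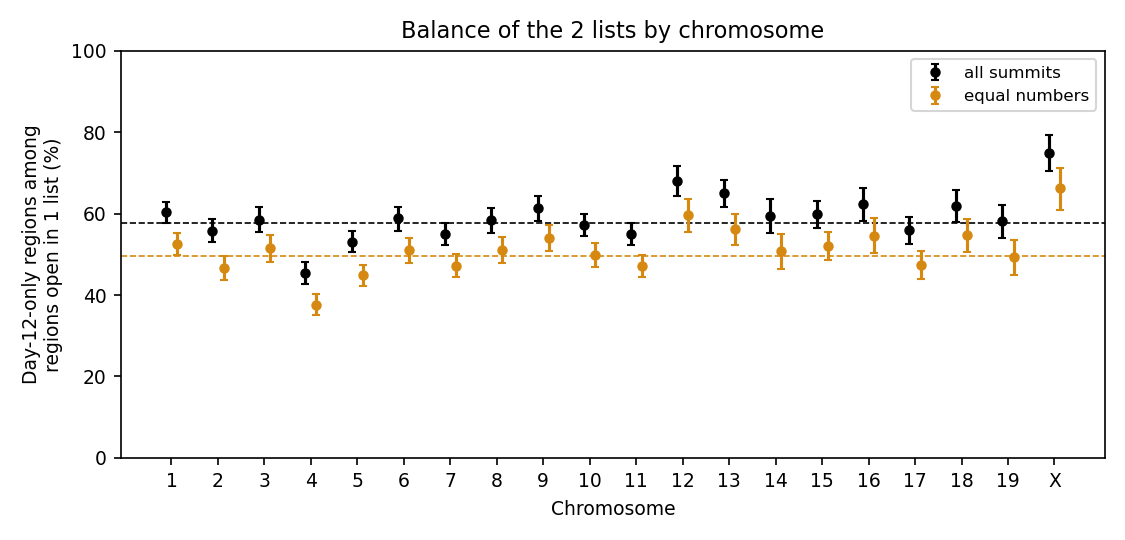
Day-12-only regions as a share (%, y axis) of the regions open in 1 of the 2 lists, by chromosome (x axis; Y, with 2 such regions, is not drawn), for all summits (black) and equal numbers (orange); bars are exact 95% intervals and dashed lines the genome's 57.8% and 49.7%. Chromosome 4 lay lowest at 45.5% and X highest at 75.0%.

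Some loci held runs of neighbouring regions of 1 class. The longest runs of day-12-only regions, with no other region of either list between them, were 12 regions on the X chromosome (chrX:129884507-133093327), in and around the formin gene Diaph2, with 1 of them supported, 10 on chromosome 3 and 9 on chromosome 10. The run on chromosome 3 (chr3:15427939-16008144) covered Sirpb1a, Sirpb1b, Sirpb1c and Gm5150, genes of the SIRP family of myeloid receptors, and 8 of its 10 regions were supported. These genes are similar in sequence, so reads may be placed at the wrong copy. The run on chromosome 10 (chr10:96274018-96438892) had no protein-coding gene within 100 kb of its regions. The longest off-12-only runs were 7 regions at the zinc finger genes Zfp978 and Zfp991 (chr4:147125037-147288698, 1 supported), 7 at Ndufb6 and Tmem215 (chr4:40301150-40473355, 4 supported) and 6 at Igdcc4 and Igdcc3 (chr9:65120995-65195932, 0 supported). The first and second of these lie on chromosome 4. Runs of at least 3 regions numbered 610 for day-12-only and 293 for off-12-only regions. Day-12-only regions were also the larger class, with 26.4% against 19.3% of all regions. The number of runs that these shares alone would give was not worked out, so the counts by themselves show no clustering.

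Each region was then given to its closest protein-coding gene, up to 100 kb away. Of 40528 assigned regions, 10450 (25.8%) were day-12-only, 7816 (19.3%) off-12-only and 22262 (54.9%) shared. These shares are the background for the counts of the gene lists, and no list was tested. Supported day-12-only and off-12-only regions were 7.96% and 8.13% of the assigned regions. By gene, 3686 of 14577 genes with a region had day-12-only and no off-12-only regions, 2695 had the reverse, and 2801 had both kinds. A gene leaned to day 12 when it had more day-12-only than off-12-only regions. Of the 14577 genes 4610 leaned to day 12 and 3290 to 12 days off.

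**Figure D5:**
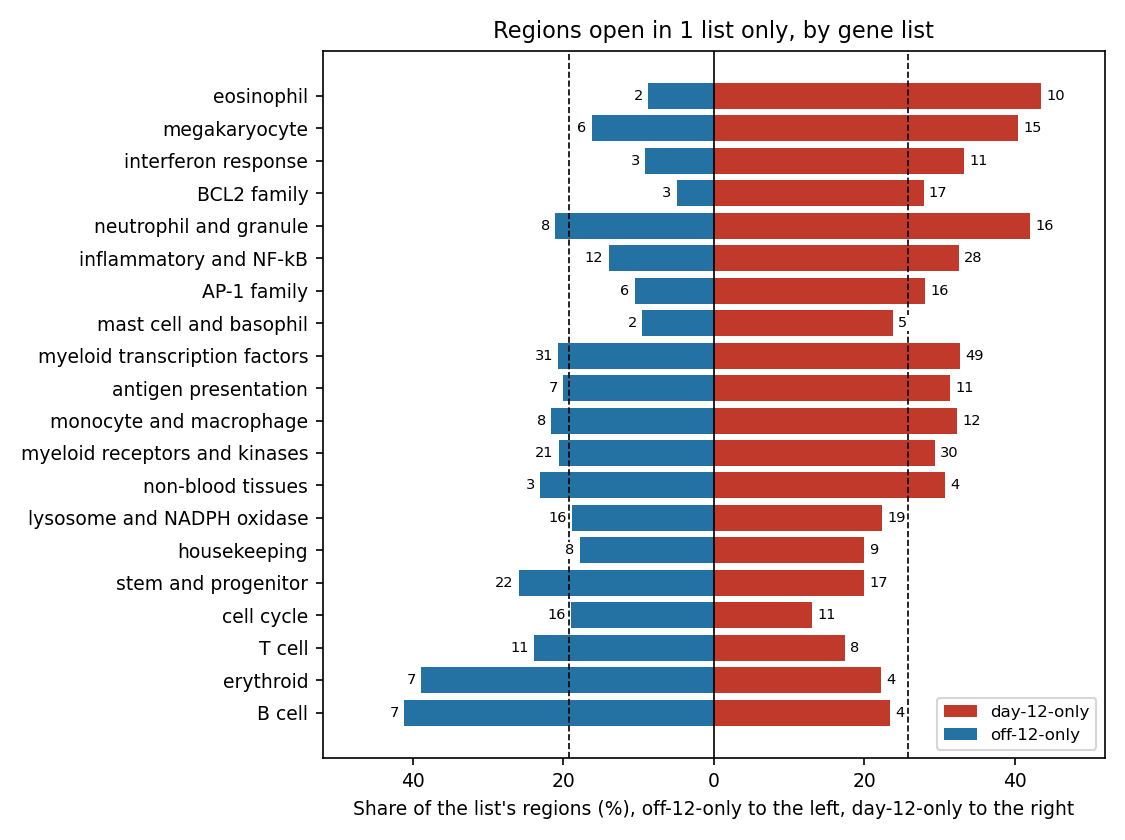
Day-12-only regions (red, to the right) and off-12-only regions (blue, to the left) as a share (%, x axis) of all regions assigned to each gene list (y axis), with their numbers at the bar ends; dashed lines mark the 25.8% and 19.3% of all assigned regions. The eosinophil, megakaryocyte and neutrophil lists reach over 40% day-12-only, and the B cell and erythroid lists have more off-12-only than day-12-only regions.

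Myeloid transcription factors had 49 day-12-only, 31 off-12-only and 70 shared regions. Of the 25 genes 13 leaned to day 12 and 3 to 12 days off, beside 4610 and 3290 of the 14577 genes with a region. With equal numbers of summits the counts of this list were 34 and 32, and supported regions were 17 and 18, so the lean did not hold there. Etv6, an ETS-family repressor, had 6 day-12-only and 1 off-12-only regions. Runx2 had 8 and 3, though 0 of its day-12-only and 2 of its off-12-only regions were supported. Bach1, a repressor that responds to haem, had 0 and 3. Spi1, which encodes PU.1 itself, had 3 shared regions, 1 day-12-only and 1 off-12-only region. Its shared region inside the gene, 718 bp from an end (chr2:91082908-91083277), had scores of 28.3 at day 0, 35.4 at day 4, 39.8 at day 8, 21.8 at day 12, 17.1 in CD11b-high cells, 45.3 at 4, 34.8 at 8 and 26.2 at 12 days off. Spi1 was thus open in every library, knockdown times included. The day-12-only region at Spi1 lay 1044 bp outside the gene (chr2:91081180-91081480) and was called at day 4 with 6.53, day 8 with 4.91, day 12 with 4.05, CD11b-high with 8.76 and 4 days off with 4.73. The off-12-only region at Spi1 lay inside the gene (chr2:91089137-91089437) and was called in every library but day 12 and CD11b-high cells, with scores from 4.94 at day 0 to 13.8 at 4 days off. AP-1 family genes had 16 day-12-only, 6 off-12-only and 35 shared regions, and 9 of 12 genes leaned to day 12. The day-12-only share of 28.1% was near the background, equal numbers gave 11 and 7, 3 regions were supported on each side, and the difference was 2 at scores of at least 10. Fosl2, a Fos-related AP-1 subunit, had 3 and 0, Batf had 1 and 0, and Atf3, a stress-induced factor, had 1 and 2, a difference that turned to 2 at scores of at least 10.

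Myeloid receptors and kinases had 30 day-12-only and 21 off-12-only regions of 102 (29.4% and 20.6%, near the background), or 26 and 24 with equal numbers. Csf2ra, the alpha chain of the GM-CSF receptor, had 3 day-12-only and 0 off-12-only regions. Its region at chr19:61244697-61244997 had scores of 32.3 at day 4, 37.0 at day 8, 17.5 at day 12, 26.4 in CD11b-high cells, 8.29 at 4 days off and 3.41 at 8 days off, and was not called at day 0 or at 12 days off. A region inside Csf2ra (chr19:61227587-61227887) was called only at day 8 with 24.3, day 12 with 13.2 and CD11b-high with 12.1, and a summit of 12 days off lay within 1 kb of it. Syk, a kinase downstream of immunoreceptors, had 6 and 3, and Itgb2, the beta chain of CD11b/CD18, had 3 and 1. Itgam, which encodes CD11b, had 1 of each kind and 1 shared region. The day-12-only region at the start of the Itgam span (chr7:128062490-128062790) was called at day 12 alone with a score of 4.36, and not in the CD11b-high library. The shared region 11762 bp from Itgam (chr7:128050689-128051067) was open in every library, with 20.2 at day 0, 8.93 at day 12, 8.03 in the CD11b-high sort and 22.7 at 12 days off.

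Lineage markers were uneven. The monocyte and macrophage list had 12 day-12-only and 8 off-12-only regions of 37, with 4 supported on each side and a difference of -1 at scores of at least 10, and 7 of its 20 genes had no region at all. Adgre1, which encodes the macrophage marker F4/80, had 3 and 0. Its strongest region (chr17:57347038-57347338) had 9.36 at day 4, 28.0 at day 8, 17.3 at day 12, 16 in the CD11b-high sort and 11.9 at 4 days off, with no call at day 0 or at 8 and 12 days off. The chemokine receptor gene Ccr2 had 2 and 0, and the scavenger receptor gene Cd163 had 0 and 1. Csf1r, the M-CSF receptor and a known target of PU.1, held no summit at day 12 and 1 at 12 days off. That region of Csf1r (chr18:61127586-61127886) had scores of 4.49 at 4 days off and 4.38 at 12 days off. The neutrophil and granule list had 16 and 8 regions, but 11 and 10 with equal numbers. It had 4 supported on each side and a difference of 3 at scores of at least 10. Cebpe, a factor of late granulocyte maturation, had 2 and 0, both supported, and with equal numbers 1 and 1. Mmp8 and Mmp9, secreted proteases of neutrophil granules, had 2 and 0 each. The eosinophil list had 10 and 2, or 9 and 3 with equal numbers, but 4 and 2 supported and a difference of 1 at scores of at least 10. Alox15, a lipoxygenase, Alox5, the first enzyme of leukotriene synthesis, and Ccr3, the eotaxin receptor, had 2 and 0 each. A region inside Alox15 (chr11:70374357-70374657) lay 16031 bp from an end of the gene's span. It had 15.1 at day 4, 24.8 at day 8, 13.7 at day 12, 8.71 at 4 days off and 5.13 in CD11b-high cells. No summit was called there at day 0 or at 8 and 12 days off. The mast cell and basophil list had 5 and 2, or 3 and 3 with equal numbers. Kit, the stem cell factor receptor, had 2 day-12-only, 0 off-12-only and 3 shared regions. The region at the start of the Kit span (chr5:75574794-75575153) was open in every library, with scores from 18.4 at day 12 to 49.3 at 4 days off. Gata2, a factor of progenitors and mast cells, had 4 shared regions and 1 day-12-only region of score 4.32 that no other library called, and with scores of at least 10 its difference turned to -2. Cpa3, a mast cell protease, had 0 and 1. The megakaryocyte list had 15 and 6, or 12 and 7 with equal numbers, with 6 and 3 supported and a difference of 3 at scores of at least 10. Fli1, an ETS factor, had 5 and 1 with 4 and 0 supported, the integrin gene Itgb3 had 3 and 2, and the collagen receptor gene Gp6 had 1 and 0.

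The inflammatory and NF-kB list had 28 day-12-only and 12 off-12-only regions of 86 (32.6% and 14.0%), 23 and 13 with equal numbers, and 15 and 5 supported. Of its 24 genes 13 leaned to day 12 and 2 to 12 days off, beside 4610 and 3290 of the 14577 genes with a region. Il1b, an inflammatory cytokine, had 3 and 0 and no shared region. Its region at chr2:129373430-129373730 had 18.4 at day 4, 16.9 at day 8, 5.69 at day 12, 4.24 in the CD11b-high sort and 4.26 at 4 days off, with no call at day 0 or at 8 and 12 days off. Nfkb1, a subunit of NF-kB, had 6 and 3 with 3 and 0 supported, and Il10, an anti-inflammatory cytokine, had 2 and 0. The interferon response list had 11 and 3, or 10 and 3 with equal numbers, but 3 supported on each side. Irf1, an interferon-induced factor, had 5 and 0. Its region 396 bp inside the gene's end (chr11:53770260-53770560) was called at day 8 with 15.0, day 12 with 9.18 and CD11b-high with 9.58 and in no other library, although a summit of 12 days off lay within 1 kb. The antiviral gene Rsad2 had 2 and 0, and Stat2, which carries interferon signals, had 0 and 1. The antigen presentation list had 11 and 7, or 11 and 10 with equal numbers. Cd74, the invariant chain of MHC class II, had 2 and 0, both supported. Its region inside the gene (chr18:60805810-60806110) had 15.5 at day 4, 23.1 at day 8, 11 at day 12 and 14.5 in CD11b-high cells, with no call at day 0 or at any time off Dox, although a summit of 12 days off lay within 1 kb. Cd86 had 2 and 0 and Cd80, which encodes another ligand that costimulates T cells, had 0 and 1. The lysosome and NADPH oxidase list was near the background with 19 and 16, and the lean turned with equal numbers, 16 and 20. Ctsd, a lysosomal protease, had 3 and 1, Lamp2, a lysosomal membrane protein on the X chromosome, had 2 and 0, and Psap, the precursor of the saposins, had 1 and 3, a difference that turned to 1 at scores of at least 10.

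The BCL2 family had 17 day-12-only and 3 off-12-only regions beside 41 shared ones. The day-12-only share of 27.9% was near the 25.8% of all assigned regions. The off-12-only share of 4.92% lay below the background of 19.3%, and the shared part of 67.2% above that of 54.9%. With equal numbers the counts were 14 and 5, but 2 and 1 were supported, a region still called at 8 days off not being supported by definition. Bcl2, an inhibitor of apoptosis, had 4 and 0. The region of Bcl2 at chr1:106627361-106627661 had 23.2 at day 4, 36.1 at day 8, 19.5 at day 12, 21.1 in the CD11b-high sort and 3.41 at 8 days off. The region of Bcl2 at chr1:106695753-106696053 had 18.2 at day 4, 33.5 at day 8, 13.7 at day 12, 13.5 in the CD11b-high sort and 18 at 4 days off. Neither was called at day 0 or at 12 days off. Pmaip1, which encodes the pro-apoptotic protein NOXA, had 4 and 0, and all 4 of its regions were still open at 4 days off. Bcl2l1, which encodes the survival protein BCL-XL, had 2 and 0.

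Stem and progenitor genes had 17 day-12-only and 22 off-12-only regions beside 46 shared ones, or 15 and 26 with equal numbers, and 3 and 6 were supported. Sox4, a factor linked to leukaemic self-renewal, had 0 and 2. Its region 35 bp from the gene (chr13:28953584-28953884) had 17.5 at day 0, 8.1 at day 4, 6.89 at 4 days off, 4.71 at 8 days off and 6.23 at 12 days off, with no call at day 8, day 12 or in CD11b-high cells. Ikzf2, the factor Helios, had 0 and 2, and Cd34, a surface marker of progenitors, had 2 and 0. Myc, a driver of growth, had 0 and 2 assigned regions and 3 shared ones. The stronger of the off-12-only regions of Myc (chr15:61983386-61983686) had 24.0 at day 0, 25.1 at day 4, 10.6 at day 8, 7.36 in CD11b-high cells, 7.64 at 4 days off, 10.7 at 8 and 10.0 at 12 days off. It was called in every library except day 12. Both Myc regions were open in CD11b-high cells and so were not supported. Cell cycle genes had 11 and 16 regions beside 57 shared ones (13.1% and 19% of their regions, the second near the background), or 11 and 17 with equal numbers, and 5 and 6 were supported. Without chromosome 4 their difference went from -5 to -1. Cdk6, a G1 kinase, had 1 and 5. The strongest off-12-only region of Cdk6 (chr5:3343760-3344060) had 15.4 at day 0, 16.6 at 4 days off, 13.8 at 8 days off and 16 at 12 days off, and was not called at any time on Dox, although a summit of day 12 lay within 1 kb. The other 4 off-12-only regions of Cdk6 had scores from 2.55 to 3.7 at 12 days off. Ccnd3, a G1 cyclin, had 0 and 2, both supported, and Mki67, a proliferation marker, had 3 and 0. With scores of at least 10 the difference turned to 1 at Cdk6 and to -1 at Mki67.

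The erythroid list had 4 day-12-only and 7 off-12-only regions of 18, or 2 and 8 with equal numbers, and 0 and 3 were supported. Nfe2, an erythroid and megakaryocytic factor, had 0 and 2. Its stronger region (chr15:103250227-103250527) had 11.3 at day 0, 14.0 at day 4, 4.45 in CD11b-high cells, 7.99 at 4, 7.27 at 8 and 12.9 at 12 days off. It was thus missing at day 8 and day 12 only. The red cell membrane gene Ank1 had 2 and 3 and the erythropoietin receptor gene Epor had 0 and 1. The B cell list had 4 and 7 regions of 17. This lean rested on chromosome 4, where Bach2, a repressor of B and T cells, had 1 and 5 and Pax5, the B lineage factor, had 0 and 2; without chromosome 4 the list had 3 more day-12-only than off-12-only regions. The strongest off-12-only region of Bach2 (chr4:32290052-32290352) had 13.4 at 4 days off, 9.48 at 12 days off and 3.25 in CD11b-high cells. The B cell kinase gene Blk had 1 and 0. The T cell list had 8 and 11 regions of 46, or 5 and 12 with equal numbers. Bcl11b, a T lineage factor, had 0 and 2, while the T cell receptor subunit gene Cd3d and the T lineage factor gene Gata3 had 1 and 0 each. Tissue markers from outside the blood served as a check and had 13 regions over 16 genes, 4 day-12-only, 3 off-12-only and 6 shared. Acta1 had 0 and 1, and Alb and Col1a1 had 1 and 0 each. Housekeeping genes had 9 and 8 regions beside 28 shared ones, or 7 and 8 with equal numbers. Among them Actb had 2 and 0 and Ywhaz had 3 and 5.

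Ranked by the difference of day-12-only and off-12-only regions, the first 10 genes were led by Fbxl17, Pde4d and Asap1. Fbxl17, a subunit of a ubiquitin ligase, had 11 and 1. Pde4d, a cAMP phosphodiesterase whose gene spans chr13:108654177-109955969, had 14 and 4. Asap1, an Arf GTPase activator of the cytoskeleton, had 13 and 4 beside 11 shared regions, with 7 and 0 supported. The strongest day-12-only region of Asap1 (chr15:64100349-64100649) had 8.43 at day 4, 30.6 at day 8, 29.2 at day 12, 19.3 in the CD11b-high sort and 8.46 at 4 days off, with no call at day 0 or at 8 and 12 days off. Map3k9, a kinase of the JNK pathway, had 7 and 0, and 6 of the 7 were supported. Thsd7b, a thrombospondin repeat protein, had 9 and 0. The Akt phosphatase gene Phlpp1, the vesicle protein gene Lrba and the cGMP kinase gene Prkg1 had 8 and 0 each. The splicing factor gene Celf2 and the Rab regulator gene Rabgap1l had 7 and 0 each. Equal numbers of summits left 5 to 12 day-12-only regions at each of these 10 genes, and 0 to 5 off-12-only regions. With scores of at least 10 the difference fell to 1 at Fbxl17 and Celf2, to 2 at Lrba and to between 3 and 5 at the others, and at Prkg1 it turned to -1. The differences were not adjusted for the length of the gene.

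At the other end of the ranking, the acyl-CoA thioesterase gene Acot7 had 1 day-12-only and 7 off-12-only regions. The glycosyltransferase gene Galnt2 and the lipid transfer gene Pitpnc1 had 2 and 7 each. Arid1b, a subunit of the SWI/SNF chromatin remodeller, had 4 and 8, with 0 and 5 supported. Hes1, a repressor downstream of Notch, had 1 and 6, of which 0 and 1 were supported. The highest score of the 6 off-12-only regions at Hes1 was 9.18 at 12 days off, in a region (chr16:30070148-30070448) also called at day 4, day 8 and 4 days off. The zinc finger gene Zfp978 had 1 and 6, and the complex I gene Ndufb6 had 1 and 5, which turned to a difference of 1 when genes were sought within 20 kb. Acot7, Zfp978 and Ndufb6 lie on chromosome 4. The membrane protein gene Dcbld1 had 0 and 4, all 4 supported. Zfp36l2, which binds AU-rich mRNA and promotes its decay, had 1 and 5, with 0 and 4 supported. The strongest off-12-only region of Zfp36l2 (chr17:84161499-84161799) had 12.2 at day 0, 17.3 at 4 days off, 20.2 at 8 days off and 11 at 12 days off, and was not called at any time on Dox. When summits with scores of at least 10 alone were counted, the difference turned to 1 more day-12-only region at Galnt2, Hes1, Pitpnc1 and Arid1b. Under that limit a shared region with 1 weak summit also counts as open in 1 list only.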

How the data were processed

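ATAC-seq was measured in 8 libraries, 1 per group. Picard 2.14.0, MACS2 and build mm10 are named per the submitters' processing notes. Aligner, MACS2 version and depth are, in the sources used here, not given. The authors deposited 1 summit list per library, called per library, whose score was read as −log10 of p or q, since the lowest scores lie where 0.05 falls. Regions were built with Python 3.11.15, numpy 2.4.6, pandas 2.3.3 and scipy 1.17.1, and the steps were tested on simulated data. Shares have exact Clopper-Pearson intervals and odds ratios Woolf intervals. Regions were assigned to the nearest RefSeq protein-coding gene (GRCm38.p6) within 100 kb, and 341 of 343 listed genes matched. The comparison, members and gene lists were chosen with earlier results of these data known. Genes were named by a fixed rule: the 10 largest and 10 lowest differences of day-12-only and off-12-only regions, up to 3 genes per list with the largest difference, and Spi1, Itgam, Kit, Csf1r, Gata2 and Myc. Some genes that this rule names are not reported here. Regions and promoters were named by score, and runs by length. Genes at printed promoters and in runs came with them, and the regions printed per gene were chosen after their values were seen. Alternatives were lists cut by length or score, without chromosome 4, other extensions and other limits.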

Additional observations from a re-analysis of the deposited data

Results flagged for a closer look

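Summits on contigs other than chromosomes 1 to 19, X and Y were outside the comparison: 88 in the day-12 list and 90 in the list at 12 days off. With 1 library per group there was no group of samples in which a sample could stand apart.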

How the results depend on the processing

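No paired analysis was possible because each group held 1 library. The ratio of day-12-only to off-12-only regions was 0.990 with equal numbers, 0.994 in the top 20000 and 0.998 in the top 10000 summits. Equal list length ties these values to about 1 by construction. The ratio was 1.17 at scores of at least 10, 1.42 without chromosome 4, 1.32 with 75 bp extension and 1.02 in supported regions. Support was read in lists of unequal length, so the last value is no measure of the balance either. The share shared was 48.1% (75 bp), 58.0% (250 bp), 59.9% (500 bp), 56.4% (top 20000), 59.6% (top 10000) and 57.9% (scores of at least 10). It was 59.8% with no other summit within 1 kb and 76.8% with supported regions. Both of these limits drop only regions open in 1 list and keep all shared ones, which raises the share by construction. Day-12-only, off-12-only and shared regions numbered 4699, 4025 and 12003 at scores of at least 10, and 2526, 2530 and 7470 in the top 10000. The top 20000 gave 5529 day-12-only and 14378 shared regions, and supported regions were 3531 and 3478.

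Odds ratios were 0.197 (day 0), 0.770 (day 4, reversed), 0.644 (4 days off) and 0.265 (8 days off) at scores of at least 10. With equal numbers they were 2.97 (day 8), 3.85 (CD11b-high) and 0.857 (4 days off). With no other summit within 1 kb they were 0.249 (day 0), 1.22 (day 4), 3.11 (day 8), 4.04 (CD11b-high) and 0.308 (8 days off). A summit within 150 bp of the region gave 0.261 (day 0), 0.658 (4 days off) and 0.309 (8 days off). Day-12-only and off-12-only regions near gene ends were 18.6% and 30.5% at scores of at least 10, and 6.02% and 11% with no other summit within 1 kb; inside genes they were 54.3% and 53.2%, and 53.3% and 52.1%. The octamer stood in 11.3% of day-12-only windows with no other summit within 1 kb and 10.5% of supported ones.

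List differences that reversed were lysosome (-4) and housekeeping (-1) with equal numbers, monocyte (-1) at scores of at least 10, B cell (3) without chromosome 4, housekeeping (-1) with no other summit within 1 kb and non-blood tissues (-1) with genes within 20 kb. At scores of at least 10 the gene differences reversed to -1 at Prkg1 and Mki67, -2 at Gata2, 2 at Atf3 and 1 at Galnt2, Hes1, Pitpnc1, Arid1b, Psap and Cdk6, and within 20 kb to 1 at Ndufb6. The cause was not tested. Over the alternatives run, 289 gene values, 58 list values and 59 other values stayed close to the reported ones, and 118, 36 and 46 moved without reversal. With 1 library per group and no depth given, a missing summit may be a region under the limit of calling.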
